A study of Mus musculus with 6 samples.

Results

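Cadherins with a numbered Cdh symbol and non-clustered protocadherins were examined in ribosome-bound RNA of mouse thalamus. The genes were all rows of the count tables whose symbol was Cdh or Pcdh followed by a number, with an x or y allowed after the number of a protocadherin. Of 32531 gene rows, 35 had such a symbol, and 29 of them reached at least 0.5 CPM (reads of a gene per 1000000 gene reads of its library) in 3 or more libraries. These 29 members were 18 cadherins and 11 protocadherins. The study compared 3 libraries of immunopurified RNA (IP) with 3 libraries of Input, all from the thalamus of untreated adult control mice that carried Slc17a6-EGFP/Rpl10a (line JX883). In such a line the ribosomal protein Rpl10a carries EGFP in cells that express the transgene, whose name comes from Slc17a6 (vesicular glutamate transporter VGLUT2). Anti-EGFP beads then pull down the ribosomes of those cells from homogenised tissue, a method called translating ribosome affinity purification (TRAP). Every IP and Input library came from the same transgenic line, and by its labels Input too is ribosomal-bound RNA. No source used here gives the sex or exact age of the mice, or says whether replicates were separate or pooled animals, so the p-values reflect only how far these libraries differ, and that may be technical.

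Cadherins are transmembrane proteins that bind cadherins on neighbouring cells in the presence of calcium. Classical cadherins of type I and type II bind catenins inside the cell, which link them to actin. The non-clustered protocadherins of the delta-1 and delta-2 groups lack the catenin-binding tail of classical cadherins, and several delta-2 members bind the actin-regulating WAVE complex. In the brain, cadherins and protocadherins are known for combinations of expression that differ between nuclei, the thalamic nuclei among them, while other members mark endothelium or glia.

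The libraries held between 52068141 and 54421395 gene reads in IP and between 44081149 and 47340321 in Input, and 3 reads corresponded to 0.0551 to 0.0681 CPM. CPM values from here on are scaled with TMM factors, which adjust for differences in library composition. Slc17a6 had 6489, 2193 and 2200 CPM in IP replicates 1, 2 and 3, against 3153, 876 and 478 CPM in Input, so that the IP level was higher in each pair (log2 fold change 1.27 ± 0.68, edgeR adjusted p = 0.207 without and 0.000275 with the replicate block). Of 8 thalamic glutamatergic markers, 3 were higher and 0 lower. Markers of other cells were low in IP: 7 of 7 oligodendrocyte, 6 of 7 astrocyte, 5 of 6 oligodendrocyte precursor, 5 of 6 microglial, 3 of 7 endothelial and 6 of 7 GABAergic markers were lower in IP (edgeR quasi-likelihood test, adjusted p under 0.05). Their summed levels in IP and Input were 153 to 276 and 3193 to 4902 CPM for oligodendrocytes, 48.3 to 57.7 and 356 to 654 CPM for astrocytes, 7.58 to 16.4 and 109 to 113 CPM for precursors, 1.88 to 2.62 and 35.8 to 57.2 CPM for microglia, 118 to 214 and 1002 to 1405 CPM for GABAergic neurons, and 1.77 to 2.52 and 11.6 to 16.3 CPM for endothelium. None of these markers was at 0 in all 3 IP libraries, although Cldn5, a tight junction gene of endothelium, had only 1 IP read. Habenula neuron markers were lower in IP too, for 4 of 6. They summed to 28.2 to 37.0 CPM in IP and 91.8 to 274 CPM in Input. Input replicate 3 stood apart from Input replicates 1 and 2: markers of cortex and hippocampus summed to 157 CPM there against 9.11 and 14.2 CPM, those of choroid plexus and ependyma to 1206 against 42.3 and 44.8 CPM, those of striatum to 608 against 64.8 and 144 CPM, and those of thalamic glutamatergic neurons to 2200 against 6827 and 4008 CPM. The choroid plexus and ependyma markers were also highest in replicate 3 within IP, at 45.9 CPM against 4.22 and 5.87 CPM. So were those of cortex and hippocampus, at 46.96 CPM in IP replicate 3 against 21.49 and 31.79 CPM. Striatal markers summed to 76.92 CPM there, against 72.55 and 47.49 CPM in IP replicates 1 and 2.

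Of the 29 members, 5 were lower in IP and 0 higher, while 24 missed the threshold (edgeR quasi-likelihood test, Benjamini-Hochberg adjusted p under 0.05 over 16496 genes). Over all genes tested, 15.4% were called lower and 9.6% higher in IP, 25% in either direction, so the share of members called lower lay near the background. Of members, 0 were higher at an unadjusted edgeR p under 0.05, by DESeq2 or by limma-voom. With the replicate number as a block, which uses the pairing of IP and Input libraries, 7 were lower and 2 higher, against 19.1% and 16% of all genes (35.1% in either direction). The fit without the block leaves differences between replicate numbers in its error. The median log2 fold change (IP over Input) was -0.26 over the members and -0.04 over all genes tested. The members called lower were Pcdh15, Cdh23, Cdh19, Cdh20 and Pcdh11x. Cdh23 reached the minimum of 0.5 CPM through Input libraries alone, and such a gene could only be found lower. A lower IP value is a lower level in purified RNA relative to Input of the same line. From such bulk RNA, the number of cells that hold an RNA and the amount per cell cannot be told apart.

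**Figure D1:**
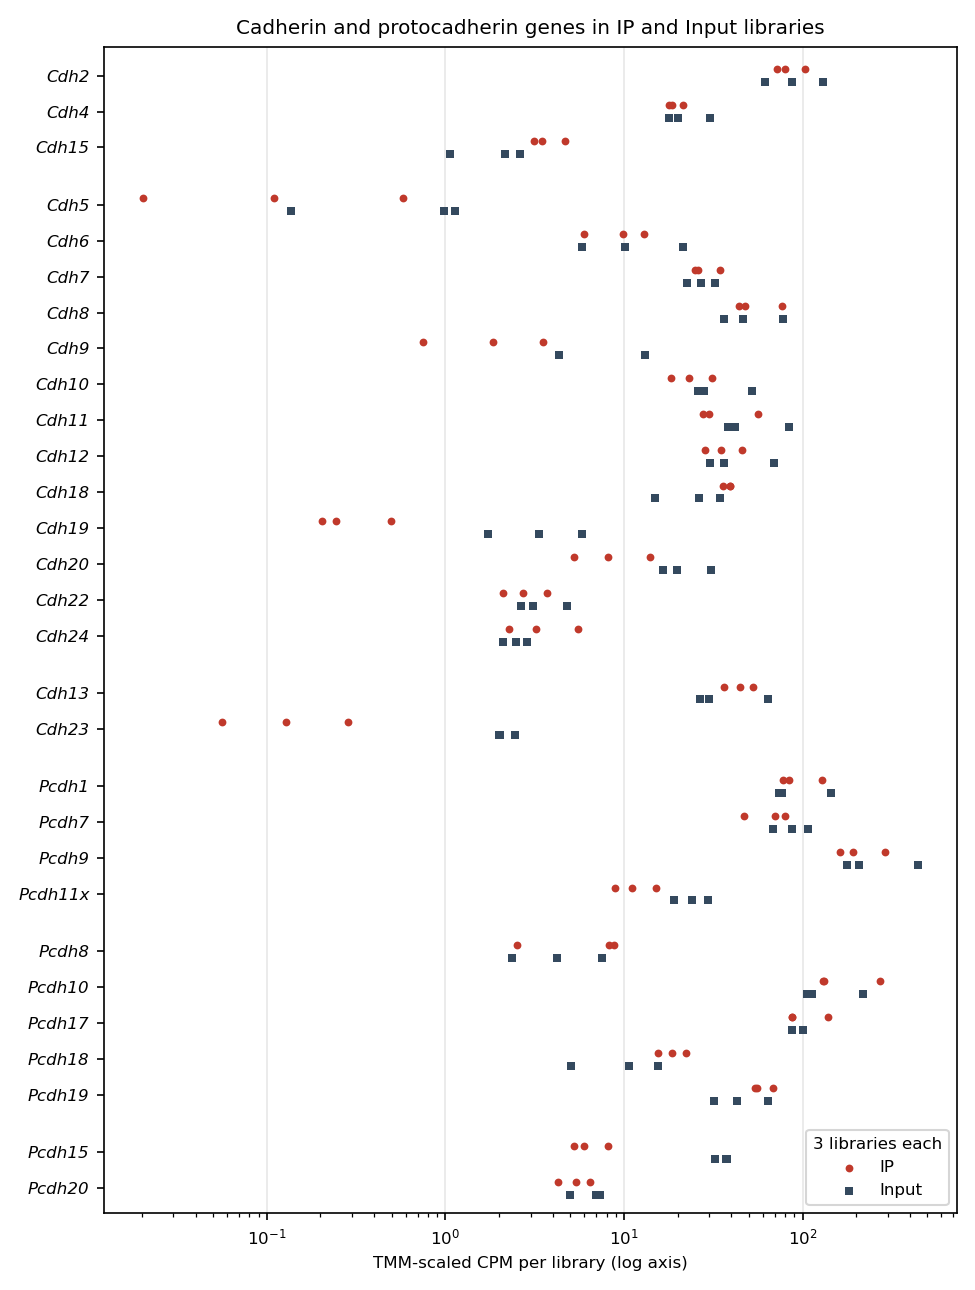
TMM-scaled CPM (log axis) of the 29 members in each of 3 IP libraries (circles, upper row of each gene) and 3 Input libraries (squares, lower row), with genes grouped as type I, type II, other cadherins, delta-1, delta-2 and other protocadherins. The IP circles of Pcdh15, Cdh23, Cdh19, Cdh20 and Pcdh11x all lie left of their Input squares, while most other genes overlap.

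Pcdh15 and Cdh23 encode the protocadherin and the cadherin that join as the tip link of inner ear hair cells, and Pcdh15 is also known in brain as a gene of oligodendrocyte precursors. Pcdh15 had 5.96, 5.23 and 8.15 CPM in IP, against 37.2, 32.4 and 37.8 CPM in Input. The groups lay far apart with little spread inside each, and Pcdh15 fell by 2.47 ± 0.26 on the log2 scale (SE, n = 3 each), 5.55-fold lower in IP (edgeR adjusted p = 0.000545). Pcdh15 was called in 6 of 6 fits without 1 library, and was the 1 member still called without both libraries of replicate 2. Of 6 oligodendrocyte precursor markers, 5 were lower in IP, among them Pdgfra at a log2 fold change of -3.80, and the median over the 6 was -4.20. The other marker, C1ql1, had 0.56 ± 0.49 and was not called (edgeR adjusted p = 0.440). Their part in the Pcdh15 result was not tested. Cdh23 had 0.284, 0.0564 and 0.129 CPM in IP, from 14, 3 and 7 reads, against 2.46, 2.03 and 2 CPM in Input. Cdh23 reached the CPM minimum through all Input and no IP libraries, so every IP value lay below every Input value by that rule. Cdh23 fell by 3.77 ± 0.84 on the log2 scale, 13.7-fold lower in IP (edgeR adjusted p = 0.0130). Its p is no separate support for that direction. Without IP replicate 1 the log2 fold change was -4.49 (edgeR adjusted p = 0.0180). The Cdh23 call was kept in 6 of 6 fits without 1 library, with an edgeR adjusted p of up to 0.0459, and ended without both libraries of replicate 2 (edgeR adjusted p = 0.121). Both genes lie on chromosome 10, Cdh23 from 60302748 to 60696490 and Pcdh15 from 73099342 to 74649737 (GRCm38, the assembly of mm10).

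Cdh19 and Cdh20 are type II cadherins known from glial cells, Cdh19 in particular from the oligodendrocyte and Schwann cell lineages. Cdh19 had 0.203, 0.244 and 0.497 CPM in IP, against 5.85, 3.34 and 1.73 CPM in Input. Its highest IP value was below its lowest Input value, and IP and Input held 50 and 508 reads in all. Cdh19 fell by 3.52 ± 0.74 on the log2 scale, 11.5-fold lower in IP (edgeR adjusted p = 0.0104). The call was kept in 6 of 6 fits without 1 library and ended without both libraries of replicate 1 or of replicate 2 (edgeR adjusted p = 0.103 and 0.114). Cdh20 had 13.9, 5.25 and 8.15 CPM in IP, against 30.8, 19.7 and 16.5 CPM in Input. The groups did not overlap, and Cdh20 fell by 1.29 ± 0.40 on the log2 scale, 2.45-fold lower in IP (edgeR adjusted p = 0.0459; 0.00383 in the blocked fit). On leaving out IP replicate 2, IP replicate 3, Input replicate 1 or Input replicate 2 the Cdh20 call ended, with edgeR adjusted p of 0.127, 0.124, 0.134 and 0.0894. Oligodendrocyte markers had a median log2 fold change of -4.44 and astrocyte markers of -4.32, so the log2 fold change of Cdh20 was the smaller in size. Cdh7 lies between Cdh20 and Cdh19 on chromosome 1, 4.99 Mb from Cdh20 and 0.748 Mb from Cdh19. Cdh7, a type II cadherin of neurons, had 34.4, 25.9 and 24.9 CPM in IP, against 32.4, 27.0 and 22.7 CPM in Input. The Cdh7 values overlapped, at a log2 fold change of 0.05 ± 0.24 (edgeR adjusted p = 0.896) whose sign turned with library totals or upper-quartile scaling (-0.0049 and -0.04).

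Pcdh11x, a delta-1 protocadherin of the X chromosome, had 15, 8.95 and 11.2 CPM in IP, against 29.7, 19.1 and 24 CPM in Input. IP was lower by about the same log2 ratio in each pair, at -0.98, -1.09 and -1.10. Pcdh11x fell by 1.05 ± 0.29 on the log2 scale, 2.07-fold lower in IP (edgeR adjusted p = 0.0291; 0.0053 in the blocked fit). The call ended without IP replicate 2, IP replicate 3 or Input replicate 1 (edgeR adjusted p = 0.106, 0.0907 and 0.0877). Of the 4 delta-1 members, 1 passed the test, as did 25% of all genes tested.

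To set members lower in IP beside members that were not called, the 150 bases before an annotated start are given for Pcdh15, Cdh20 and Cdh23, lower in IP, and for Pcdh10 and Pcdh17. The Pcdh15 start used by RefSeq lies inside the GENCODE gene. The sequences are from RefSeq on GRCm38.p6, 5′ to 3′ on the strand of the gene: Pcdh15 chr10:73821717-73821866 (+ strand), Cdh20 chr1:104768370-104768519 (+ strand), Cdh23 chr10:60696491-60696640 (- strand), Pcdh10 chr3:45378248-45378397 (+ strand) and Pcdh17 chr14:84443413-84443562 (+ strand). Capitals mark the CCAAT box (CCAAT or, on the other strand, ATTGG) and the TATA box (TATAAA or TTTATA), and in Cdh20 CCAAT and ATTGG overlap.
Pcdh15: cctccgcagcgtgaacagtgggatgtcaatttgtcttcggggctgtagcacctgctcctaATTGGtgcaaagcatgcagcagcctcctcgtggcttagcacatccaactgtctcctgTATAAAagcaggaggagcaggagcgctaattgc
Cdh20: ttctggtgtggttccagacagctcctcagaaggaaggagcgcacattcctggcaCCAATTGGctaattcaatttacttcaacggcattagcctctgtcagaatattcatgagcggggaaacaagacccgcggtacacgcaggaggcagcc
Cdh23: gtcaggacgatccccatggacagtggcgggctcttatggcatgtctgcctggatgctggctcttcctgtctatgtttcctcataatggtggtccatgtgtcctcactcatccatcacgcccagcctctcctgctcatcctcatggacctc
Pcdh10: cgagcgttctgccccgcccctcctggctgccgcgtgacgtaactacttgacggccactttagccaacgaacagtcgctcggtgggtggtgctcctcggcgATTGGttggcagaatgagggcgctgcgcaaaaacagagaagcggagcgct
Pcdh17: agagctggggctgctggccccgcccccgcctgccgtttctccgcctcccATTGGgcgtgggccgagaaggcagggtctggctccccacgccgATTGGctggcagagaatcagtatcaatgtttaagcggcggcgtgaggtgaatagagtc
Promoter sequences matched 21 of the 29 members, with 24 windows in all because Cdh7 and Pcdh9 have several starts, and those of Pcdh9 overlap. A CCAAT box was present in 13 of 24 member windows (54.2%), against 24.5% of 32851 windows of the same length, and a TATA box in 2 (8.33%), those of Pcdh15 and Pcdh8, against 7.57%. These motifs were chosen after the sequences were seen. The CCAAT box was in the windows of Pcdh15, Cdh20, Pcdh10 and Pcdh17 alike, and the Cdh23 window held neither motif. SOX cores (ACAAAG or ACAATG, both strands) were in 2 member windows and 15.5% of all windows, and the E-box CAGCTG in 2 and 8.39%. Member windows had a median of 6.5 CG pairs, and all windows a median of 4.

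The glial and vascular list and the thalamic nucleus list were chosen with earlier results of these data known. Differences between these lists are only described. The list of glial and vascular cadherins held 7 names, of which 5 reached the CPM minimum. Of these 5, 3 were lower in IP (Pcdh15, Cdh19 and Cdh20), with a median log2 fold change of -1.64, which is the value of Cdh5. Over all genes tested, 15.4% were lower in IP and 25% were called in either direction. Without 1 library or replicate number the list median ranged from -2.34 (without IP replicate 2) to -1.22 (without Input replicate 1). Cdh5 is VE-cadherin, the adhesion protein of endothelial junctions. Cdh5 had 0.0203, 0.583 and 0.110 CPM in IP, against 1.13, 0.983 and 0.136 CPM in Input. The groups overlapped, with IP replicate 2 above Input replicate 3, at a log2 fold change of -1.64 ± 1.28 (not called; edgeR adjusted p = 0.387). Leaving out IP replicate 2 gave -3.45 (edgeR adjusted p = 0.164). Of 38 IP reads of Cdh5, 31 were in IP replicate 2. The 7 endothelial markers summed to 1.87, 1.77 and 2.52 CPM in the 3 IP libraries. Of them, Emcn had 0, 32 and 10 IP reads, and Cldn5 had its only IP read in replicate 2. Pecam1, Flt1 and Kdr had their lowest IP level in replicate 2, at 0.489, 0.207 and 0.188 CPM. Tek and Slco1a4 had their highest IP level in replicate 3. The part of these markers in the Cdh5 reads was not tested. Pcdh12, another endothelial gene, which was below the CPM minimum, had 0, 21 and 0 reads in IP, against 5, 4 and 0 in Input. Pcdh18, a delta-2 protocadherin placed in the list as a gene of mural cells and fibroblasts, went the other way. It had 22.2, 15.5 and 18.5 CPM in IP, against 15.5, 10.6 and 5.06 CPM in Input. IP was higher in 3 of 3 pairs, Input replicate 3 was lowest, and the log2 fold change was 0.85 ± 0.40 (edgeR adjusted p = 0.152, not called). The blocked fit called it, at 0.97 ± 0.32 (edgeR adjusted p = 0.04). The mural and fibroblast markers Rgs5 and Pdgfrb had log2 fold changes of -5.05 and -3.57 and were lower in IP. In all, 5 of 7 tested mural and fibroblast markers were lower, with sums of 3.24 to 4.75 CPM in IP and 64.9 to 192 CPM in Input. Their part in the Pcdh18 result was not tested.

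The thalamic nucleus list held 9 members (Cdh4, Cdh6, Cdh8, Cdh10, Cdh11, Pcdh7, Pcdh10, Pcdh17 and Pcdh19), and all 9 reached the CPM minimum. Of these, 0 were called in either direction by edgeR, 0 at an unadjusted edgeR p under 0.05, and 0 by DESeq2 or limma-voom. With the replicate block, 1 was lower. Their median log2 fold change was -0.24, and without 1 library or replicate number it ranged from -0.40 to 0.26, the highest without Input replicate 1. All 9 had overlapping IP and Input values. Over all genes tested, 25% were called in either direction and 44.9% had IP and Input values that did not overlap. A p that misses the threshold does not show equal levels.

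Among the type II cadherins of that list, Cdh8 had 76.4, 47.4 and 43.9 CPM in IP, against 77.4, 36.4 and 46.7 CPM in Input. Replicate 1 was highest in both groups, and the log2 fold change was 0.06 ± 0.32 (edgeR adjusted p = 0.911), with the opposite sign of -0.03 under upper-quartile scaling. Cdh11, known from neurons and from mesenchymal cells, had 56.3, 30.1 and 27.6 CPM in IP, against 84.0, 38.4 and 42 CPM in Input. IP was lower in 3 of 3 pairs although the groups overlapped. Cdh11 was not called at -0.53 ± 0.38 on the log2 scale (edgeR adjusted p = 0.344), and was called lower in the blocked fit at -0.51 ± 0.17 (edgeR adjusted p = 0.0421). Cdh10 had 31.1, 23.1 and 18.4 CPM in IP, against 51.9, 26.1 and 28.2 CPM in Input. It too was lower in IP in each pair, at -0.55 ± 0.32 on the log2 scale, short of the threshold (edgeR adjusted p = 0.249; 0.0792 in the blocked fit). Cdh6 had 9.90, 5.98 and 13.0 CPM in IP, against 21.4, 10.2 and 5.84 CPM in Input. Its pairs disagreed, with log2 ratios of -1.11, -0.77 and 1.16, and its lowest value was in Input replicate 3. Cdh4, the type I R-cadherin, had 17.8, 18.6 and 21.4 CPM in IP, against 30.4, 18 and 20 CPM in Input. Only Input replicate 1 stood off, and the log2 fold change was -0.24 ± 0.26 (edgeR adjusted p = 0.545).

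The protocadherins of the thalamic list are delta-2 members apart from Pcdh7, which is delta-1. Pcdh10, which binds the WAVE complex, had 272, 131 and 131 CPM in IP, against 217, 106 and 113 CPM in Input. IP was slightly higher in 3 of 3 pairs, with log2 ratios of 0.32, 0.30 and 0.22, and a log2 fold change of 0.29 ± 0.37 that was not called (edgeR adjusted p = 0.610; 0.127 in the blocked fit). Pcdh17 had 139, 87.3 and 87.4 CPM in IP, against 100.2, 87.5 and 87.7 CPM in Input. Replicates 2 and 3 were nearly equal between the groups, and the log2 fold change was 0.19 ± 0.22 (edgeR adjusted p = 0.579). Pcdh19, the X-linked gene of a human epilepsy, had 68.5, 54.2 and 55.3 CPM in IP, against 64.4, 43.2 and 31.9 CPM in Input. Its log2 fold change was 0.35 ± 0.27 (edgeR adjusted p = 0.384). Pcdh7 had 69.8, 47.1 and 79.3 CPM in IP, against 107, 68.2 and 86.9 CPM in Input. IP was lower in each pair, at -0.42 ± 0.25 on the log2 scale, which missed the threshold (edgeR adjusted p = 0.262). Of the Pcdh7 exon bases, 21.1% overlap the antisense gene 4932441J04Rik. The strand setting of the counting is not known, nor is it known how reads in that stretch were counted.

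**Figure D2:**
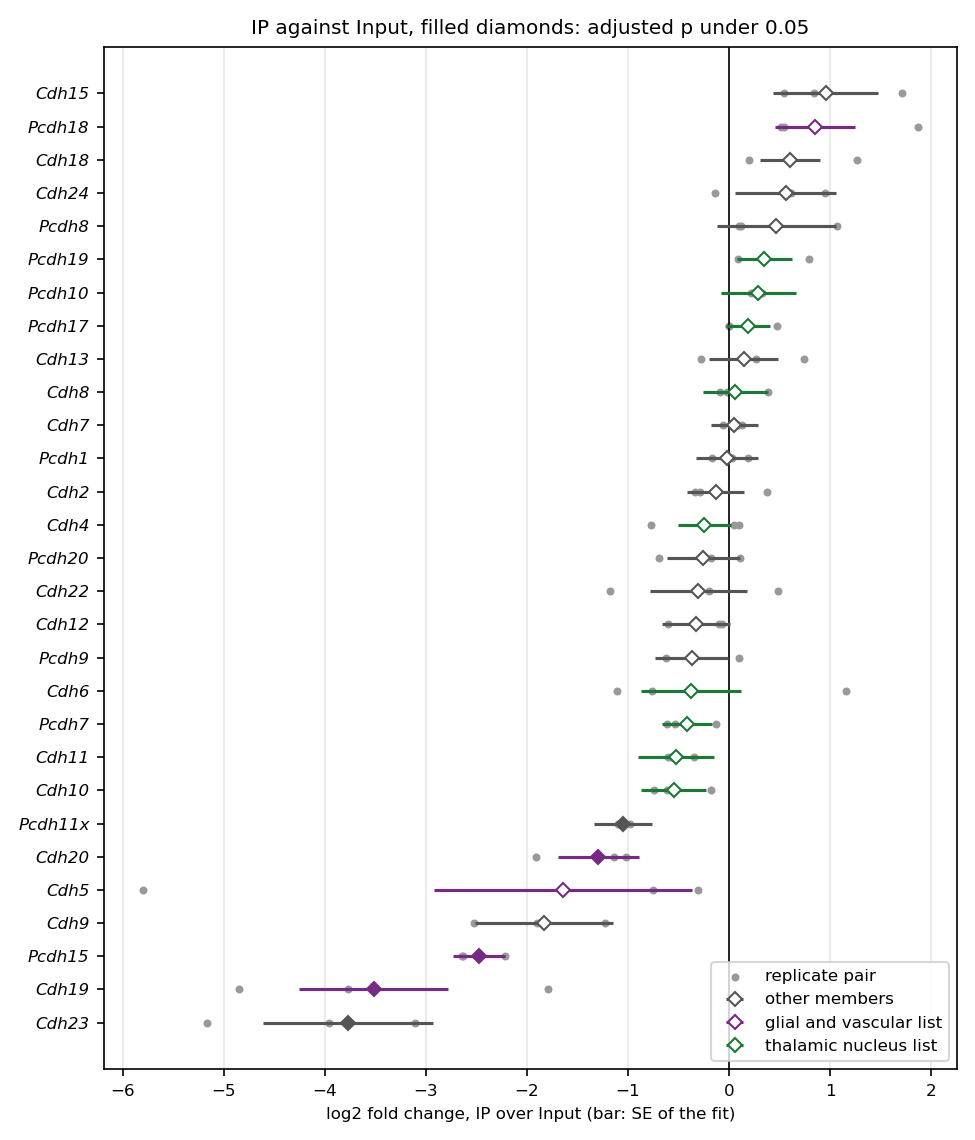
Log2 fold change of IP over Input for the 29 members (diamonds, filled where the edgeR adjusted p is under 0.05; bars, SE), with the log2 ratio of each of 3 replicate pairs as grey points and colours for the thalamic nucleus list, the glial and vascular list and other members. The 9 thalamic list genes lie between -0.55 and 0.35, and 4 of the 5 glial and vascular genes lie at -1.29 or lower. Of those 4, Cdh5 was not called. Both lists were chosen with earlier results of these data known.

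Levels can be compared between genes only per exon length, here as TMM-scaled CPM per kb of exon. Ordered by the mean over all 6 libraries, Pcdh9, a delta-1 protocadherin, was highest, at 31.6 ± 9.74 CPM per kb in IP and 40.8 ± 21.6 in Input (SD, n = 3 each). Pcdh1, Cdh2, Pcdh10 and Pcdh17 came next in that mean, at 11.1, 11.0, 10.2 and 7.56 CPM per kb. Within IP alone Cdh18 (8.40) lay above Pcdh17, and within Input alone Pcdh7 (8.24) and Cdh12 (7.21) did. Pcdh1 had 11.0 ± 3.10 CPM per kb in IP and 11.2 ± 4.56 in Input, and Cdh2, N-cadherin, had 10.5 ± 1.99 in IP and 11.6 ± 4.28 in Input. Pcdh10 had 11.2 ± 5.11 CPM per kb in IP and 9.15 ± 3.93 in Input, and Pcdh17 had 8.05 ± 2.30 in IP and 7.07 ± 0.557 in Input. The levels of Pcdh1, Cdh2 and Pcdh10 lay within 1 SD of each other in both groups, Pcdh17 lay below Cdh2 by more than the SD of either, and the Pcdh9 mean lay above all 4 by more than its own SD. By library, Pcdh9 had 289, 163 and 192 CPM in IP, against 445, 207 and 179 CPM in Input. Pcdh1 had 128, 78.1 and 84.2 CPM in IP, against 145, 76.5 and 73.8 CPM in Input. Cdh2 had 103, 80.2 and 71.8 CPM in IP, against 130, 61.7 and 87.6 CPM in Input. Each of the 3 overlapped between groups, with log2 fold changes of -0.37 ± 0.36 for Pcdh9, -0.02 ± 0.31 for Pcdh1 and -0.13 ± 0.28 for Cdh2 (edgeR adjusted p = 0.501, 0.969 and 0.770). At the low end, Cdh23 had 0.00923 CPM per kb in IP and 0.128 in Input.

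The remaining members were not called in the fit without the block. Cdh9, a type II cadherin known from neurons, had 0.750, 1.84 and 3.53 CPM in IP, against 4.33, 4.32 and 13.2 CPM in Input. IP lay wholly below Input, and replicate 3 was highest in both groups. Cdh9 missed the threshold at -1.83 ± 0.68 on the log2 scale (edgeR adjusted p = 0.0835). It was called lower in the blocked fit (-1.87 ± 0.47, edgeR adjusted p = 0.0107) and by DESeq2 (adjusted p = 0.0223). Leaving out Input replicate 3 gave a Cdh9 log2 fold change of -1.07 (edgeR adjusted p = 0.258), and leaving out IP replicate 3 gave -2.48 (edgeR adjusted p = 0.0622). Input replicate 3 is also the library with the high cortical and striatal markers. Within IP too, these markers summed highest in replicate 3. Their part in the Cdh9 level was not tested. Cdh18, a type II cadherin of neurons, had 39.5, 39.5 and 35.9 CPM in IP, against 34.4, 26.3 and 14.9 CPM in Input. IP lay wholly above Input, which was lowest in replicate 3, the library with the least of the thalamic markers, whose part in the Cdh18 level was not tested. Cdh18 was not called at 0.60 ± 0.30 on the log2 scale (edgeR adjusted p = 0.176), and was called higher in the blocked fit at 0.68 ± 0.24 (edgeR adjusted p = 0.0457). Cdh15, M-cadherin of muscle, had 3.49, 4.70 and 3.15 CPM in IP, against 1.07, 2.62 and 2.16 CPM in Input. The groups did not overlap, but 0.95 ± 0.52 on the log2 scale missed the threshold (edgeR adjusted p = 0.214). In all, 3 members lay wholly above and 6 wholly below Input, against 19.9% and 25% of genes tested (44.9% in either direction). Among those below, Cdh23 lay there by the CPM rule. The other uncalled members had log2 fold changes of -0.32 for Cdh12, -0.30 for Cdh22, -0.26 for Pcdh20, 0.15 for Cdh13, the GPI-anchored T-cadherin, 0.47 for Pcdh8 and 0.56 for Cdh24.

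Several members are neighbours on a chromosome, and their log2 fold changes are given in chromosomal order. On chromosome 15, Cdh6, Cdh9, Cdh10, Cdh12 and Cdh18 lie in this order with gaps of 3.56, 1.96, 1.44 and 0.959 Mb, and their log2 fold changes were -0.37, -1.83, -0.55, -0.32 and 0.60. On chromosome 3, Pcdh10 and Pcdh18 lie 4.31 Mb apart, with 0.29 and 0.85. On chromosome 8, Cdh8, Cdh11 and Cdh5 lie in this order with gaps of 3.22 and 1.32 Mb and had 0.06, -0.53 and -1.64.

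The levels of the members moved together by replicate number. In 19 of 29 members (65.5%) replicate 1 was the highest library in IP and in Input alike, against 20% of 16496 genes tested. The summed level of the 29 members was 1518, 959 and 1029 CPM in IP, against 1819, 1006 and 1021 CPM in Input. Within a group, the median log2 ratio of replicate 1 over the mean of replicates 2 and 3, with 0.05 CPM added to each value, was 0.44 in IP and 0.76 in Input over the members, and -0.03 and -0.02 over all genes. This difference between libraries was larger than that between groups for Pcdh10, Pcdh1 and Cdh8. Replicate 1 was sequenced in lane 3, and replicates 2 and 3 in lanes 8 and 4, so lane and replicate cannot be told apart. In replicates 1, 2 and 3, ambiguous records made up 13.2%, 7.43% and 7.37% in Input, and 1.53%, 1.92% and 1.92% in IP. Alignments at more than 1 place made up 45.0%, 38.5% and 38.9% of records in IP, and 23.6%, 26.6% and 27.2% in Input. Of 14581 tested genes with a known exon length (88.4%), replicate 1 was highest in both groups for 26.1% of those with 5 kb or more and 17.1% of shorter ones. Among members it was highest in both groups for 16 of 20 with 5 kb or more and 3 of 9 shorter ones. The part of length, or of these record shares, in the pattern was not tested.

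**Figure D3:**
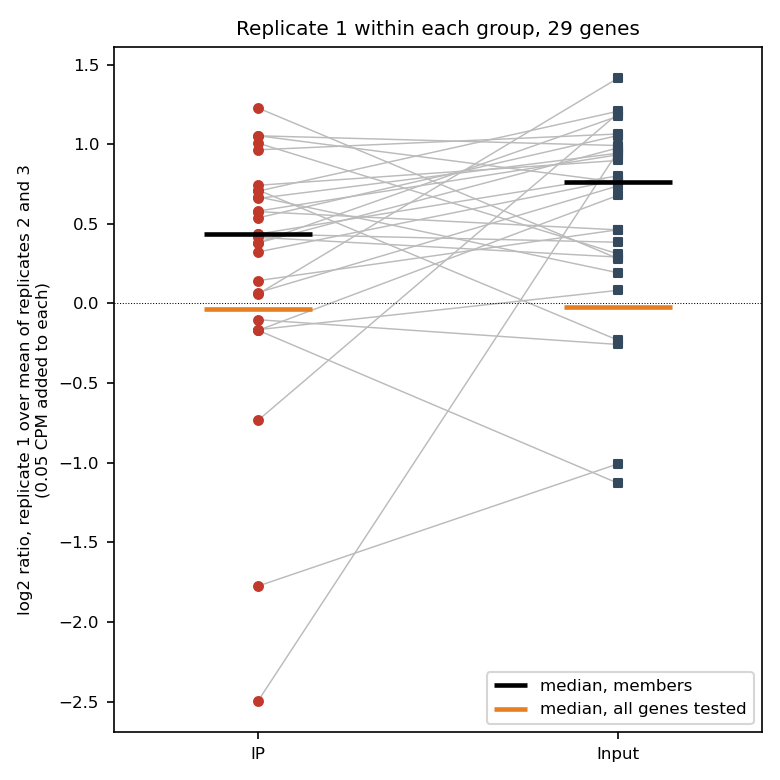
Log2 ratio of replicate 1 over the mean of replicates 2 and 3 for each of 29 members (0.05 CPM added), in IP (left, circles) and Input (right, squares), with lines joining a gene and bars at the medians of the members (black) and of all genes tested (orange). The medians of the members are 0.44 in IP and 0.76 in Input, and those of all genes lie near 0.

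Genes that work with cadherins were given as lists. Of 15 tested catenins and partners, 1 was higher and 4 were lower in IP, with a median log2 fold change of 0.07. The shares over all genes tested were 9.6% higher and 15.4% lower. Pkp4, a plakophilin related to p120 catenin, rose to 646, 781 and 627 CPM in IP, against 333, 405 and 379 CPM in Input, at a log2 fold change of 0.88 ± 0.17 (edgeR adjusted p = 0.00759). Vcl, vinculin, had 4.6, 5.51 and 8.44 CPM in IP, against 21.2, 21.3 and 21.6 CPM in Input, and fell by 1.79 ± 0.30 on the log2 scale (edgeR adjusted p = 0.00453). Both calls were kept in 6 of 6 fits without 1 library. Ctnna3, Ctnnd1 (p120 catenin) and Mllt4 (afadin) were lower in IP, with log2 fold changes of -3.42, -0.82 and -0.69, and their calls held in only 1, 2 and 0 of 6 such fits (edgeR adjusted p up to 0.142, 0.113 and 0.120). Ctnnb1, beta-catenin, and Ctnnd2, the neural delta-catenin, did not pass, with log2 fold changes of 0.25 ± 0.22 and 0.34 ± 0.16.

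The counts of the next lists also stand beside 9.6% higher and 15.4% lower over all genes tested. In the WAVE complex list with the kinase Taok2, 2 of 9 genes were higher and 2 lower in IP, with a median log2 fold change of 0.21. Its paralogs went different ways: Wasf3 and Cyfip2 rose by log2 0.76 and 0.47, and Wasf2 and Cyfip1 fell by 1.71 and 1.26 (edgeR adjusted p = 0.0149, 0.0495, 0.00989 and 0.00667). Wasf2 and Cyfip1 kept their calls in 6 of 6 fits without 1 library. The Wasf3 call ended without IP replicate 2 or IP replicate 3 (edgeR adjusted p up to 0.0639), and the Cyfip2 call held in 1 of 6 fits (up to 0.186). Of 8 processing genes, among them the sheddase Adam10 and the Tmtc mannosyltransferases of cadherins, 0 were called by edgeR, DESeq2 or limma-voom, 1 was lower at an unadjusted edgeR p under 0.05, and 2 were lower with the block. Of 16 tested genes in other branches of the cadherin superfamily, 4 were lower in IP and 0 higher (0 at an unadjusted edgeR p under 0.05, 0 by DESeq2 or limma-voom, 1 in the blocked fit), and the median log2 fold change was -0.45. These were Fat3, Fat4, Dchs1 and Cdhr3. Fat3, a giant cadherin, had 167, 95.3 and 83.6 CPM in IP, against 423, 340 and 434 CPM in Input, and fell by 1.79 ± 0.28 on the log2 scale (edgeR adjusted p = 0.00305). Fat4 and its ligand Dchs1 fell by 1.65 and 1.24, and Cdhr3 fell by 2.33. The Fat4 call ended without IP replicate 2 (edgeR adjusted p = 0.0663), and those of Dchs1 and Cdhr3 held in 1 and 2 of 6 fits (up to 0.121 and 0.0819).

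**Figure D4:**
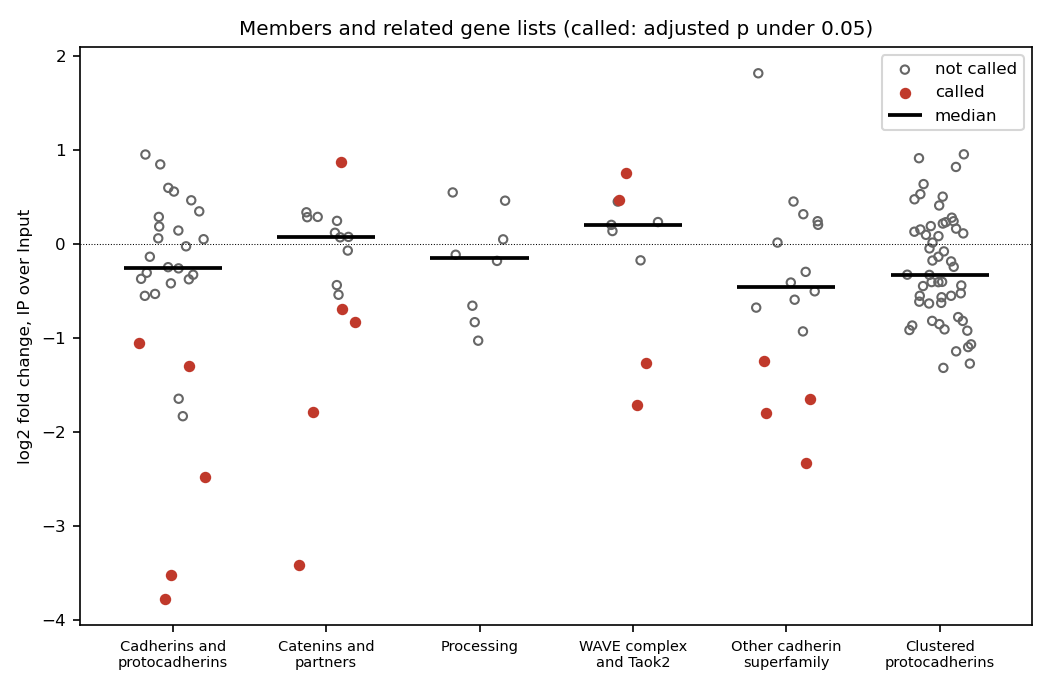
Log2 fold change of IP over Input for each tested gene of the members and of 5 related lists (filled, edgeR adjusted p under 0.05; bar, median). The members have a median of -0.26 with 5 called, all lower, and the clustered protocadherins have a median of -0.32 with 0 called.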

How the data were processed

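For each of 6 libraries the authors deposited raw read counts by gene symbol. STAR 2.0.0e, HTSeq and mm10 are named in the submitters' processing notes. Which annotation, counting mode and strand setting were used is not given in the sources used here. Groups and replicate numbers came from the titles and lanes from the descriptions. HTSeq summary rows and a row named unknown, with at most 4 reads, were kept out. Records in no gene made up 7.65% to 7.85% in IP and 14.0% to 17.7% in Input, and ambiguous ones 1.53% to 1.92% and 7.37% to 13.2%. Alignments at more than 1 place made up 38.5% to 45.0% of records in IP and 23.6% to 27.2% in Input. Libraries of a group all differed beyond sampling noise.

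Here, low-count genes were removed with filterByExpr before TMM scaling, and the rest were tested with edgeR 4.0.16 (quasi-likelihood, robust, two-sided; R 4.3.3). Adjustment was Benjamini-Hochberg over all genes, with a threshold of 0.05. The fit was checked on simulated counts that held no differences between replicate numbers, so the check does not cover those seen here. Libraries with the same number deviated from their group means together (r across genes of 0.271, 0.113 and 0.141). Between different numbers r was -0.201 to 0.00549. The numbers, taken from the titles, were therefore read as pairs. Libraries with the same number also shared a lane, so r cannot tell shared tissue from a shared lane. Of the fits, only the blocked one uses these pairs. The main fit and the fits with libraries left out had no block, because the labels state no paired test. The members, lists and named genes (called members, both role lists, the 5 highest per exon length, and called partners) were chosen with earlier results of these data known. Exon lengths and coordinates came from GENCODE M21 (GRCm38), and DESeq2 1.42.0 and limma 3.58.1 served as alternatives, beside other scalings, filters and libraries left out.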

Additional observations from a re-analysis of the deposited data

How the results depend on the processing

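The count of members lower in IP stayed within 1.5 times of 5 under other scalings, filters, DESeq2 and limma-voom, and ranged from 1 to 5 without 1 library or replicate number, the lowest without replicate 2. It was 3 without IP replicate 2, IP replicate 3, Input replicate 1 or replicate 3. The count higher was 2 with the replicate block and otherwise 0. Over all genes, 1584 were higher (2638 with the block, 78 to 1635 with libraries left out) and 2538 lower (612 to 2553 with libraries left out). Over the 5 related lists, 3 were higher (0 to 5) and 10 lower (16 with the block, 0 to 10). The cause was not tested. The thalamic list median ranged from -0.40 to 0.26 with libraries left out. The 5 calls kept their direction under every alternative run. For Cdh23, which reached the CPM minimum through Input libraries alone, that direction was set by the rule and is no sign of robustness. Pairing changed the call of Cdh9, Cdh11, Cdh18 and Pcdh18 and of no other member. Without a low-count filter the median of all genes was -0.24 instead of -0.04. Signs turned for uncalled members: Cdh7 with library totals (-0.0049) and upper-quartile scaling (-0.0394), Cdh8 with upper-quartile scaling (-0.0251), and Pcdh1 with the block (0.015) and limma-voom (0.013). With libraries left out, the log2 fold change ranged from -0.535 to 0.125 for Cdh12, -0.0723 to 0.659 for Cdh13, -0.356 to 0.193 for Cdh2, -0.715 to 0.169 for Cdh22, -0.401 to 0.0779 for Cdh4, -0.983 to 0.273 for Cdh6, -0.0951 to 0.2 for Cdh7, -0.217 to 0.435 for Cdh8, -0.265 to 0.372 for Pcdh1, -0.139 to 0.709 for Pcdh10, -0.0589 to 0.309 for Pcdh17 and -0.631 to 0.161 for Pcdh9.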

Other observations

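Clustered protocadherins, the alpha, beta and gamma genes that form a code of neuronal identity, were counted in 59 rows, of which 53 were tested. Of these, 0 were called by edgeR and 0 by limma-voom, while 4 were lower at an unadjusted edgeR p under 0.05, 2 by DESeq2 and 1 (Pcdhb18) with the replicate block. Their median log2 fold change was -0.32. Over all genes tested, edgeR called 25% in either direction. Pcdhac2, an alpha-cluster gene, had 37.2, 24.9 and 24.2 CPM in IP, against 30.9, 15.1 and 14.7 CPM in Input, at a log2 fold change of 0.51 ± 0.34 (edgeR adjusted p = 0.317). Pcdhgc3 had 23.5, 14.5 and 22.6 CPM in IP, against 52.3, 24.7 and 17.0 CPM in Input, at -0.63 ± 0.41 (edgeR adjusted p = 0.295). Genes of the alpha cluster and of the gamma cluster share their last exons, so reads there cannot be given to 1 gene. Replicate 1 was highest in both groups for 37 of these 53 genes and for 8 of 8 processing genes, against 20% of all genes tested. The same held for 7 of 16 tested genes in other branches of the superfamily. In the catenin list it held for 2 of 15 genes, and in the WAVE complex list for 2 of 9.

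The 6 matching symbols under the CPM minimum were Cdh1, Cdh3, Cdh16, Cdh17, Cdh26 and Pcdh12. Cdh3, P-cadherin, was nearest to the minimum, reaching it in 2 libraries, with 1, 0 and 1 reads in IP, against 38, 27 and 0 in Input. Its ratio of IP to Input reads per library total was 2.63%, with an exact 95% counting interval of 0.312% to 9.90%. The interval pools the reads of each group and leaves out differences between libraries, and Cdh3 was not tested. Cdh1, E-cadherin, had 4 reads in IP and 4 in Input in all. Cdh16 had 13 reads, all in Input replicate 2. Just inside the minimum, Cdh5 and Cdh23 reached it in 3 libraries.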
